A study of Homo sapiens with 9 samples.

Results

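The unfolded protein and ATF4 stress genes were followed in BON-1 cells, a human line long used as a model of pancreatic neuroendocrine tumours, after knockdown of RABL6A. The list held 42 genes named by their platform symbol. There were 14 endoplasmic reticulum (ER) chaperones and folding factors and 4 genes of ER-associated degradation. A sensor group of 4 genes held the stress sensors ATF6, ERN1 and EIF2AK3 and their effector XBP1. The rest were 12 genes of ATF4 and stress targets and 8 genes of serine, glycine and other amino acid synthesis. Of these 42 genes, 39 were tested among 12498 genes on the arrays. PDIA3 and ERN1 each had 1 probe, detected on 0 arrays, and were too dim to test. No probe was named for HERPUD1 in the annotation used. A probe was kept when its detection p-value was under 0.05 on at least 3 arrays.

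The unfolded protein response adjusts the folding capacity of the ER to its load of secretory protein. Membrane sensors start it: ATF6 is cleaved and becomes a transcription factor, IRE1 (encoded by ERN1) splices the mRNA of XBP1, and PERK (encoded by EIF2AK3) phosphorylates the translation factor eIF2. ATF6 and XBP1 are known for raising chaperone and degradation genes, whereas phosphorylated eIF2 slows general translation and favours translation of ATF4. The kinase GCN2 acts on the same eIF2 site when amino acids are short, so ATF4 and its amino acid synthesis targets can also move without ER stress. Neuroendocrine cells are secretory and make peptide hormones and granins in the ER.

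The arrays were 9 Illumina HumanHT-12 BeadChips, 3 for each of 3 groups. Vector cells carried the empty lentiviral vector pLKO.1, and the other groups carried the same vector with shRNA 1 or shRNA 2 against RABL6A, all grown in the same serum-containing medium. The time since transduction, and whether cells were pools or clones, were not given in the sources used here. Values are log2 intensity after background correction and quantile normalization, changes are differences on that scale, and "both shRNAs" means the average of both group means minus the vector mean. A gene is called when its Benjamini-Hochberg adjusted p in limma, over all 12498 genes, is under 0.05. The labels speak of separate sets of cells without saying how far these were separate cultures, so each p-value reflects no more than the scatter among these samples, which may be technical. Precision is limited by how few arrays there are.

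RABL6 fell by 1.99 (SE 0.19, adjusted p = 0.0014 in limma) and lay lower on 6 of 6 knockdown arrays than on every vector array. Without background correction its change was -1.02, still called. Between 19565 and 21201 probes were detected per array. The arrays labelled shRNA 1 replicate 2 and shRNA 2 replicate 2 stood apart from their own groups. Over the tested genes, shRNA 1 replicate 2 correlated at 0.933 and 0.945 with its group and at 0.994 and 0.989 with replicates 1 and 3 of the shRNA 2 group. The array labelled shRNA 2 replicate 2 correlated at 0.933 and 0.939 with its group and at 0.995 and 0.989 with replicates 1 and 3 of shRNA 1. Results are therefore given for all 9 arrays as labelled and for 7 arrays without these 2. Leaving out both narrows the spread within each shRNA group by itself, and if the other 4 shRNA arrays were the exchanged ones, the values of the shRNAs would trade places. All 10 neuroendocrine markers were detected on 9 arrays, with a summed intensity of 66938 to 68339 in vector and 51192 to 64624 in knockdown arrays. Of these 10, SLC18A1, a vesicular amine transporter, fell by 2.06 and INSM1, a neuroendocrine transcription factor, by 1.00, while SCG5 rose by 1.53 and ENO2 by 0.62 (adjusted p = 0.00128, 0.00555, 0.0313 and 0.0312 in limma). Of the other cell types, 1 of 7 fibroblast, 3 of 6 leukocyte and 2 of 4 endothelial markers were detected on at least 3 arrays, and COL3A1, LUM, THY1, PTPRC, CD3E, PECAM1 and CDH5 were detected on 0. Their summed intensities were 21.5 to 24.0 in vector and 21.0 to 45.1 in knockdown arrays for fibroblast, 594 to 677 and 479 to 1990.4 for leukocyte, and 72.6 to 75.1 and 92.3 to 188 for endothelial markers, and their part in the results was not tested. KDR, an endothelial receptor detected on 9 arrays, was higher by 1.00 (adjusted p = 0.00469 in limma).

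With both shRNAs, 4 members fell and 4 rose. The 4 that fell were all ER chaperones or folding factors, PDIA4, CANX, SDF2L1 and MANF. The 4 that rose were SEL1L of ER-associated degradation and the ATF4 or stress targets VLDLR, NUPR1 and CEBPG. Each direction made up 10.3% of the 39 tested members, against a background of 8.54% of all genes called higher and 8.09% called lower, so the share of called members was near that of all genes. On 7 arrays 9 members were higher (23.1%) and 10 lower (25.6%), again near the background of 20.7% and 20.5%. All 6 knockdown arrays lay above all 3 vector arrays for 7 members (17.9%, background 15%) and below them for 9 members (23.1%, background 14.2%). The 8 called members were also called on 7 arrays, with changes of -1.01 for PDIA4, -0.95 for CANX, -0.67 for SDF2L1, -0.46 for MANF, 1.09 for SEL1L, 0.85 for VLDLR, 0.66 for NUPR1 and 0.46 for CEBPG. By role, 4 of 13 tested chaperones fell (30.8%, background 8.09%) and 0 rose (background 8.54%) on 9 arrays. Of 20 ATF4 targets and amino acid synthesis genes, 3 rose (15%, background 8.54%) and 0 fell (background 8.09%). On 7 arrays 8 of these 20 were higher (40%, background 20.7%) and 3 lower (15%, background 20.5%). In bulk RNA of this kind, fewer cells with a transcript and less of it per cell cannot be told apart.

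**Figure D1:**
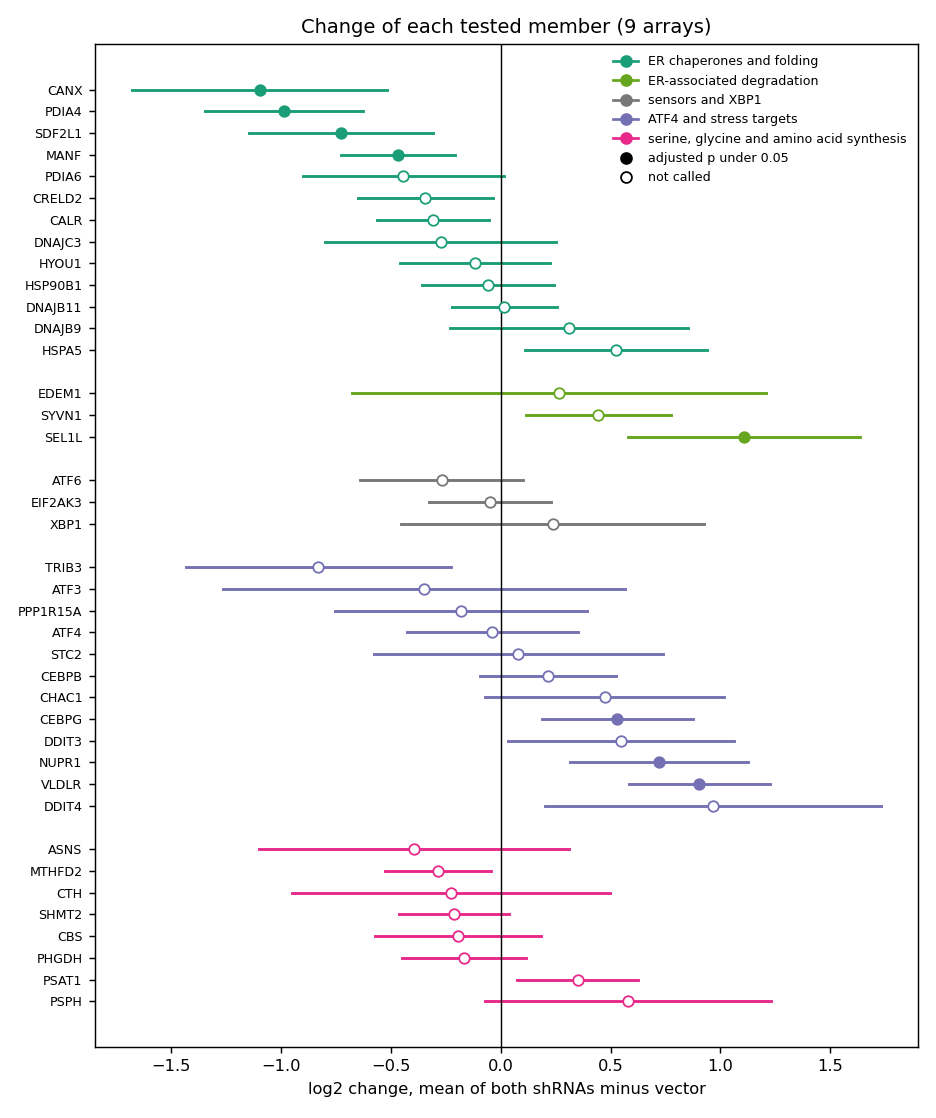
Change of the 39 tested members, as the log2 difference of the mean of both shRNAs minus vector on 9 arrays, with 95% confidence intervals from limma, grouped by role and ordered by size. Filled points have an adjusted p under 0.05: the 4 filled points left of 0 are chaperones, and of the 4 to the right 1 is an ER-associated degradation gene and 3 are ATF4 or stress targets.

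PDIA4, a protein disulfide isomerase of the ER, had log2 intensities of 8.38, 8.42 and 8.35 on the vector arrays, 7.04, 7.64 and 7.31 under shRNA 1, and 7.50, 7.24 and 7.66 under shRNA 2. The groups did not overlap, and the gap to vector was wider than the whole range among the knockdown arrays. It fell by 0.99 (SE 0.16, adjusted p = 0.00635 in limma), to 50.4% of vector. With both shRNAs, PDIA4 was the only called chaperone that stayed called whichever array was left out. It was also called with shRNA 1 alone (-1.06, adjusted p = 0.0129) and with shRNA 2 alone (-0.92, adjusted p = 0.0218). Each of these 2 calls was lost without any 1 vector array and without replicate 1 of that shRNA, so it held in 5 of 9 fits. The call with shRNA 2 alone was also lost with a replicate block.

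CANX encodes calnexin, the membrane-bound lectin chaperone of newly made glycoproteins. It read 9.41, 9.23 and 9.60 in vector, 7.91, 8.31 and 8.27 under shRNA 1, and 8.79, 7.74 and 8.88 under shRNA 2. Every knockdown array was below every vector array, and the lowest was shRNA 2 replicate 2. The change was -1.10 (SE 0.25, adjusted p = 0.0227 in limma, 46.8% of vector), and a second CANX probe gave -1.19 (adjusted p over probes = 0.0135). The call was lost when any 1 of the vector arrays was left out (highest adjusted p = 0.109). Over all genes these fits called 257 to 291 higher and 232 to 259 lower with both shRNAs, against 1067 and 1011 on 9 arrays. Such a loss, here and below, was thus not particular to the gene named.

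SDF2L1, a partner of the ER Hsp70 co-chaperones, read 11.68, 11.59 and 11.75 in vector, 10.52, 11.04 and 11.07 under shRNA 1, and 11.15, 10.64 and 11.28 under shRNA 2. MANF, a small ER protein that is also secreted and binds HSPA5, read 11.45, 11.52 and 11.73 in vector, 11.02, 11.08 and 11.15 under shRNA 1, and 11.04, 11.12 and 11.22 under shRNA 2. Neither gene's knockdown arrays overlapped vector, and the 6 MANF values were tightly grouped. SDF2L1 fell by 0.73 (SE 0.18, adjusted p = 0.0304 in limma) and MANF fell by 0.47 (SE 0.11, adjusted p = 0.0266). Both calls were lost with a replicate block, without any 1 vector array or without shRNA 1 replicate 1. That of MANF was also lost without shRNA 2 replicate 1.

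HSPA5, the ER Hsp70 chaperone BiP that is often taken as the marker of the unfolded protein response, had the opposite sign and was not called. It read 8.80, 8.41 and 8.76 in vector, 9.46, 9.15 and 8.90 under shRNA 1, and 9.41, 9.29 and 8.86 under shRNA 2. All 6 knockdown arrays lay above all vector arrays, with replicate 3 of each shRNA closest to them. The difference of 0.52 (95% interval 0.11 to 0.94) did not pass the test (adjusted p = 0.0852 in limma on 9 arrays and 0.0629 on 7). Without shRNA 2 replicate 3 it was called.

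The other 8 tested chaperones were not called on 9 arrays. The ER Hsp90, HSP90B1, differed by -0.06 (95% interval -0.36 to 0.24), and the Hsp70 co-chaperone DNAJB11 by 0.02 (-0.22 to 0.26), so for both a 2-fold change lay outside the interval. The lectin chaperone CALR (-0.31, adjusted p = 0.0976 in limma) and the folding factor CRELD2 (-0.34, adjusted p = 0.118) had all 6 knockdown arrays below vector. Differences were -0.44 for the disulfide isomerase PDIA6, -0.27 for the co-chaperone DNAJC3, -0.12 for HYOU1, the nucleotide exchange factor of HSPA5, and 0.31 for the co-chaperone DNAJB9. On 7 arrays PDIA6 and CRELD2 were also called lower. That made 6 of 13 chaperones lower (46.2%, 7-array background 20.5%) and 0 higher (7-array background 20.7%). Over the 13 chaperones the median change was -0.31 and 10 were below 0, beside a median of 0.03 over all genes.

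Proliferation markers were lower in the same arrays. Of 12 markers 6 fell (50%, background 8.09%) and 0 rose (background 8.54%) with both shRNAs (AURKB, a mitotic kinase, by 1.81, adjusted p = 0.0238, and CCNA2, cyclin A2, by 1.61, adjusted p = 0.0288, in limma). Relative to the vector mean, their mean level was -2.23, -1.03 and -0.91 on the shRNA 1 arrays and -1.10, -2.20 and -0.44 on the shRNA 2 arrays. The arrays with the lowest proliferation markers, shRNA 1 replicate 1 and shRNA 2 replicate 2, also had the lowest chaperone medians (-0.48 and -0.45). The order did not hold on the other 4: shRNA 1 replicate 3 had a chaperone median of -0.36, below those of shRNA 1 replicate 2 (-0.19) and shRNA 2 replicate 1 (-0.16), whose proliferation markers were lower, and shRNA 2 replicate 3 had -0.19. The part of proliferation in the chaperone changes was not tested.

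**Figure D2:**
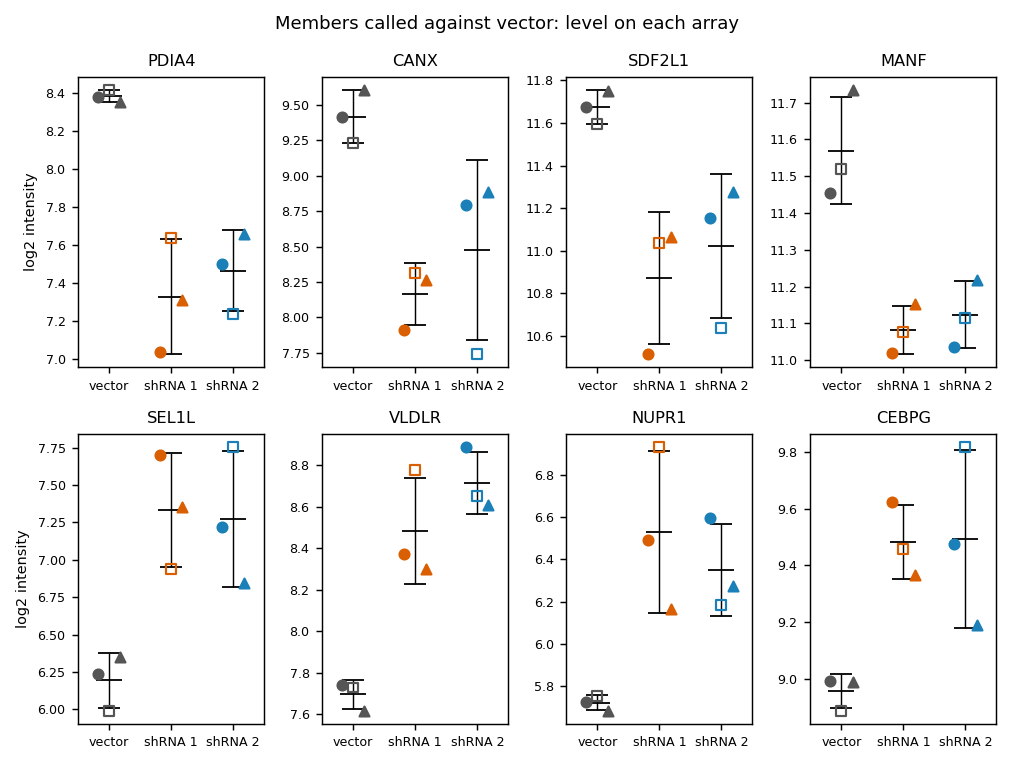
Log2 intensity of the 8 called members on each array; circles are replicate 1, open squares replicate 2 and triangles replicate 3, and the long bar with whiskers is the group mean ± SD (n = 3). The upper row shows the 4 members that fell and the lower row the 4 that rose, and in each panel all 6 knockdown arrays lie on 1 side of the 3 vector arrays.

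Promoter sequences are shown for members that hold an element through which ATF6 and XBP1 are known to act, among them the called CANX and SDF2L1 and several chaperones that were not called. Windows from 250 bases before to 50 after the start site came from RefSeq (GRCh38.p14) and existed for 38 of the 42 members (none for PDIA3, NUPR1, PSPH and SHMT2). The ER stress response element (ERSE), searched on both strands as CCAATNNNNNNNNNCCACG, occurred in 22 of 27305 promoters (0.0806%) and in 5 of 13 chaperone windows, HSPA5, HSP90B1, CALR, CANX and CRELD2, and in that of XBP1. Its second form (ERSE-II), ATTGG and CCACG with any base between them, was searched in the same way and occurred in 15 promoters (0.0549%), among them SDF2L1, HYOU1 and HERPUD1. The UPR element TGACGTGG occurred in 217 promoters (0.795%) and among members in HYOU1, where it overlaps the ERSE-II farther from the start site. The windows below are HSPA5 (chr9:125241371-125241429, minus strand, element 66 to 48 bases before the start site), CANX (chr5:179698758-179698816, plus strand, 151 to 133), CALR (chr19:12938364-12938422, minus strand, 225 to 207), CRELD2 (chr22:49918534-49918592, minus strand, 80 to 62), SDF2L1 (chr22:21642094-21642144, minus strand, 188 to 178) and XBP1 (chr22:28800583-28800641, minus strand, 52 to 34). Capitals mark the fixed letters of the element.
HSPA5: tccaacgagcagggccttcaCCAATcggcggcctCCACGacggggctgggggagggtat
CANX: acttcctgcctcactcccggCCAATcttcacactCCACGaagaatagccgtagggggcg
CALR: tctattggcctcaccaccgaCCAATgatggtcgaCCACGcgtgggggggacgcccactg
CRELD2: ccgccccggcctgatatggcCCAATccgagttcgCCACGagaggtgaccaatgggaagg
SDF2L1: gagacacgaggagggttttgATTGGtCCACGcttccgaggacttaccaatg
XBP1: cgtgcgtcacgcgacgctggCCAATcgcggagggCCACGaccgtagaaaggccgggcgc
Genes with the same element had different changes, from -1.10 for CANX to 0.52 for HSPA5. PDIA4 and MANF fell and have no match in their windows, which says only that these letters are not there.

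Among the ER-associated degradation genes, SEL1L rose. It encodes the adaptor of the SYVN1 ubiquitin ligase that returns misfolded proteins from the ER. SEL1L read 6.24, 5.99 and 6.35 in vector, 7.70, 6.94 and 7.36 under shRNA 1, and 7.22, 7.75 and 6.85 under shRNA 2. Its lowest knockdown array was above its highest vector array. The rise of 1.11 (SE 0.23, adjusted p = 0.0156 in limma, 216% of vector) was within its SE of that of CANX in size, and without background correction it was 0.58, still called. It was called with each shRNA alone (1.14, adjusted p = 0.0331 in limma, and 1.08, adjusted p = 0.0427). Each of these calls held in 3 of 9 fits that left out an array. Both of these calls were lost with a replicate block. That of shRNA 2 was also lost without background correction, with median centring and without the filter on dim probes. The probe was rather dim, with a mean raw signal of 177 in vector and 257 in knockdown arrays. The call for both shRNAs was lost without any 1 vector array or with a replicate block. SYVN1 itself differed by 0.44 (adjusted p = 0.069) and lay above all vector arrays on 5 of 6 arrays, while its second probe gave 0.17. EDEM1, which marks misfolded glycoproteins for removal, differed by 0.26 with a 95% interval of -0.68 to 1.21, and its arrays are given below.

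Of all tested genes outside the list, FOXO4 had the profile most like SEL1L over the 9 arrays (Pearson r = 0.995), followed by NDUFA8 (0.993), CLDN3, AGT and PHLDB2 (0.989 each). These values describe arrays that share their vector samples and carry no test.

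None of the 3 tested genes of the sensor group was called on 9 arrays, beside 16.6% of all genes in either direction. With 3 genes, a count of 0 is not far from that share. EIF2AK3, the kinase PERK, had readings of 7.91, 7.94 and 7.97 in vector, 8.02, 8.01 and 7.91 under shRNA 1, and 7.63, 8.05 and 7.75 under shRNA 2. 3 knockdown arrays lay above and 3 below the narrow vector range, and the difference was -0.05 (95% interval -0.33 to 0.23, adjusted p = 0.816 in limma). ATF6 differed by -0.27 (adjusted p = 0.295), with 3 knockdown arrays below the vector range and 3 within it, and was called lower on 7 arrays (-0.26, adjusted p = 0.0487). XBP1 differed by 0.24 (adjusted p = 0.629), and its second probe by 0.21. Splicing of XBP1 was not analysed here.

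ATF4, the transcription factor at the centre of the list, is controlled mainly at translation, so its mRNA level is not its activity. It read 13.19, 12.96 and 12.95 in vector, 12.97, 13.16 and 12.69 under shRNA 1, and 13.40, 12.79 and 12.98 under shRNA 2. The groups overlapped, with knockdown arrays on both sides of the vector range, and a difference of -0.04 (95% interval -0.43 to 0.35, adjusted p = 0.905 in limma). The other ATF4 probes gave 0.11 and -0.33, both not called.

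Among the 12 ATF4 and stress targets, 3 rose (25%, background 8.54%) and 0 fell (background 8.09%), with a median change of 0.34. VLDLR, a lipoprotein receptor reported as an ATF4 target, read 7.74, 7.73 and 7.62 in vector, 8.37, 8.78 and 8.30 under shRNA 1, and 8.89, 8.65 and 8.61 under shRNA 2. Vector and knockdown arrays did not overlap. VLDLR rose by 0.90 (SE 0.14, adjusted p = 0.00579 in limma, 187% of vector), and with both shRNAs it stayed called whichever array was left out. It was also called with each shRNA alone (0.79 and 1.02), but neither of these calls held without any 1 vector array or without replicate 1 of that shRNA. The call of shRNA 1 was also lost with median centring or with a replicate block. A second VLDLR probe was detected on 0 arrays.

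NUPR1, a small stress-induced chromatin regulator, read 5.72, 5.75 and 5.68 in vector, 6.49, 6.93 and 6.16 under shRNA 1, and 6.60, 6.18 and 6.27 under shRNA 2. All knockdown arrays were higher, but the probe was dim, with a mean raw signal of 155 in vector and 187 in knockdown arrays. It rose by 0.72 (SE 0.18, adjusted p = 0.0282 in limma), a call that was lost without background correction, where it was 0.30, or with median centring. CEBPG, a bZIP protein that pairs with ATF4, read 9.0, 8.89 and 8.99 in vector, 9.62, 9.46 and 9.37 under shRNA 1, and 9.48, 9.82 and 9.19 under shRNA 2. It rose by 0.53 (SE 0.15, adjusted p = 0.0447), and this call was lost with median centring or cyclic loess. Leaving out any 1 vector array, shRNA 1 replicate 1 or shRNA 2 replicate 1 also ended both calls, as did a replicate block. Leaving out either remaining shRNA 1 array ended that of CEBPG.

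The other 8 targets beside ATF4 itself were not called on 9 arrays. DDIT4, an inhibitor of mTORC1, read 8.06, 8.92 and 8.52 in vector, 9.82, 9.03 and 9.80 under shRNA 1, and 8.96, 10.21 and 8.99 under shRNA 2. All 6 knockdown values were above vector, 3 of them only just, and the difference was 0.97 (SE 0.34, adjusted p = 0.0849 in limma). TRIB3, a pseudokinase that damps ATF4 and DDIT3, had the opposite position. It read 10.75, 10.57 and 10.56 in vector, 9.42, 10.24 and 9.44 under shRNA 1, and 10.27, 9.26 and 10.14 under shRNA 2, and differed by -0.83 (SE 0.27, adjusted p = 0.0657). Both were called on 7 arrays, DDIT4 higher (0.89) and TRIB3 lower (-0.81).

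DDIT3, the pro-apoptotic factor CHOP, differed by 0.55 (adjusted p = 0.136 in limma) and the glutathione-degrading enzyme CHAC1 by 0.47 (adjusted p = 0.212), each above all vector arrays on 5 of 6 arrays. Both were called higher on 7 arrays. Differences were 0.21 for the transcription factor CEBPB, -0.18 for the eIF2 phosphatase subunit PPP1R15A, -0.35 for ATF3 and 0.08 for the secreted glycoprotein STC2. With both shRNAs against vector, these 4 were not called on 9 or on 7 arrays. In that comparison 6 of the 12 ATF4 and stress targets were higher on 7 arrays (50%, background 20.7%) and 1 lower (8.33%, background 20.5%).

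None of the 8 amino acid synthesis genes was called on 9 arrays, where 16.6% of all genes were called in either direction. For so few genes a count of 0 is not far from that share. Their median change was -0.20. In the serine pathway, PHGDH, the first enzyme, differed by -0.17 (adjusted p = 0.388 in limma), PSAT1, the next, by 0.35 (adjusted p = 0.0832), and PSPH, the last, by 0.58 (adjusted p = 0.201; a second probe gave 0.63). PSAT1 read 11.50, 11.30 and 11.49 in vector, 11.58, 11.72 and 11.90 under shRNA 1, and 11.89, 11.72 and 11.89 under shRNA 2. Its 6 knockdown arrays were all higher, the nearest by a small margin. SHMT2 (-0.21) and MTHFD2 (-0.29), which pass serine carbon to folate in mitochondria, lay below all vector arrays on 6 of 6 arrays. ASNS, asparagine synthetase, differed by -0.39 (adjusted p = 0.419) and the transsulfuration enzymes CBS by -0.19 and CTH by -0.23. The CTH probe was detected on 6 of 9 arrays. On 7 arrays PSAT1 and PSPH were called higher (25%, 7-array background 20.7%) and ASNS and MTHFD2 lower (25%, 7-array background 20.5%). These shares were near the background.

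The C/EBP-ATF response element, through which ATF4 with its partners is known to act, was searched on both strands as TGATGNAA and occurred in 1003 of 27305 promoters (3.67%). Among members it was found for ATF3, CHAC1, ASNS and HERPUD1. The windows below are shown as the amino acid response counterpart of the chaperone element, for ATF3 (chr1:212565196-212565243, plus strand, 191 to 184 bases before the start site), CHAC1 (chr15:40953242-40953289, minus strand, 209 to 202) and ASNS (chr7:97872449-97872496, minus strand, 68 to 61). Capitals mark the fixed letters.
ATF3: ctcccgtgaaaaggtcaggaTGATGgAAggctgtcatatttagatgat
CHAC1: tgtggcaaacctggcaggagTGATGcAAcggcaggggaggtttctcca
ASNS: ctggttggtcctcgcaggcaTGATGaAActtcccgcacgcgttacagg
None of these 3 genes was called on 9 arrays, and their changes ran from -0.39 to 0.47. The called VLDLR and CEBPG have no match in their windows.

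The contrast between the chaperones and the ATF4 side of the list was then taken on each array. With every gene set relative to its vector mean, the median of 13 chaperones minus the median of 20 ATF4 targets and amino acid synthesis genes was -0.03, -0.07 and 0.12 on the vector arrays. It was -0.56, -0.22 and -0.41 with shRNA 1 and -0.58, -0.57 and -0.36 with shRNA 2. All 6 knockdown arrays were lower than all vector arrays, by more than the pooled within-group SD of 0.13. Over the fitted changes the median difference was -0.33, made of -0.31 for chaperones and 0.02 for the other side. The ATF4 side lay close to the median of all genes (0.03). The contrast describes these members, whereas in the wider lists described below the 30 further ATF4 targets had a median of -0.28 and the 31 other ER folding and glycan genes one of -0.02. The median of the 20 members on the ATF4 side turned to -0.17 with median centring, which moved the median of all genes to -0.08, and to -0.05 with cyclic loess. The contrast carries no test, since the members were chosen with results known.

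**Figure D3:**
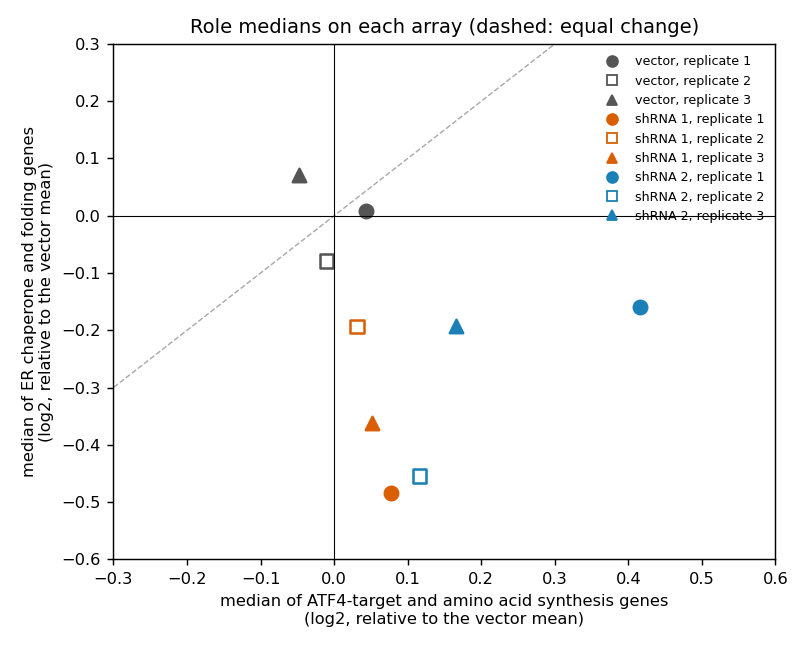
Median of 20 ATF4-target and amino acid synthesis genes (x axis) against the median of 13 chaperones (y axis) on each of the 9 arrays, in log2 relative to the vector mean, with equal change as a dashed line. The 6 knockdown arrays lie below the line, between -0.48 and -0.16 on the y axis, and the vector arrays near the centre.

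Each shRNA was also compared with vector alone, and these comparisons share the vector arrays. With shRNA 1, 7 members were called on 9 arrays (17.9%, background 11.2%): PDIA4, CANX, SDF2L1 and MANF lower, and SEL1L, VLDLR and NUPR1 higher. With shRNA 2, 3 members were called (7.69%, background 8.65%), PDIA4, SEL1L and VLDLR. On 7 arrays 21 members were called with shRNA 1 (53.8%, background 43.9%) and 14 with shRNA 2 (35.9%, background 35.3%). Among the 13 chaperones, the 7-array fit called 8 lower (61.5%, background 20.5%) and 1 higher (7.69%, background 23.4%) with shRNA 1. With shRNA 2 it called 3 lower (23.1%, background 18.1%) and 0 higher (background 17.3%), a share near the background. When any 1 vector array was left out of the 9, 0 members were called for either shRNA alone. The share of all genes called for each shRNA alone in these fits was not counted. With both shRNAs, calls over all genes fell in these fits to 257 to 291 higher and 232 to 259 lower, against 1067 and 1011.

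Between shRNA 2 and shRNA 1, limma called 0 of 39 members and 0% of all genes on 9 arrays. At an unadjusted p under 0.05 there were 0 members and 96 of 12498 genes. With array weights 11 members were called, but the share of all genes was not counted for this comparison. With both shRNAs against vector, array weights raised the calls over all genes to 2864 higher and 2724 lower, from 1067 and 1011. On 7 arrays 19 members were called between the shRNAs (48.7%, background 41.2%). The 2 arrays described above decide this count, since they lie at the other shRNA's level for several members. They were left out because their values over the tested genes matched the other shRNA, which by itself parts the shRNA groups on 7 arrays. The 7-array p-values between the shRNAs, here and below, therefore describe that choice and are no separate evidence of a difference.

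EDEM1 shows the pattern. It read 7.76, 7.61 and 7.58 in vector, 7.21, 8.70 and 7.33 under shRNA 1, and 8.66, 7.12 and 8.47 under shRNA 2. In each shRNA group replicate 2 took the side opposite to replicates 1 and 3. On 7 arrays shRNA 2 was above shRNA 1 by 1.30 (adjusted p = 0.000243 in limma).

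XBP1 had the reverse order, with 12.91, 13.01 and 12.93 in vector, 13.79, 12.63 and 13.71 under shRNA 1, and 12.61, 13.61 and 12.77 under shRNA 2. ASNS, which needs glutamine as nitrogen donor, read 11.62, 11.54 and 11.58 in vector, 11.71, 10.53 and 11.65 under shRNA 1, and 10.66, 11.70 and 10.85 under shRNA 2. For XBP1, 3 knockdown arrays were above and 3 below vector, while for ASNS 3 were just above vector and 3 well below. On 7 arrays shRNA 2 minus shRNA 1 was -1.06 for XBP1 (adjusted p = 0.000416 in limma) and -0.92 for ASNS (adjusted p = 0.000772).

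PSPH read 8.24, 8.47 and 8.03 in vector, 8.43, 9.38 and 8.39 under shRNA 1, and 9.35, 8.35 and 9.05 under shRNA 2. ATF3 read 8.82, 8.33 and 8.46 in vector, 7.43, 8.26 and 8.16 under shRNA 1, and 9.16, 7.26 and 8.86 under shRNA 2. STC2 read 8.07, 8.22 and 8.32 in vector, 8.81, 7.65 and 8.50 under shRNA 1, and 7.78, 8.81 and 8.16 under shRNA 2. For PSPH and STC2, replicate 2 of each shRNA was near the level of the other shRNA's replicate 1. For ATF3 this held for shRNA 2 replicate 2, while shRNA 1 replicate 2 lay between. The 7-array differences between the shRNAs were 0.79 for PSPH, 1.22 for ATF3 and -0.68 for STC2, each called. In contrast, HSPA5 (-0.04), MANF (0.04), CALR (0.07) and NUPR1 (0.11) had small 7-array differences between the shRNAs, none called.

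**Figure D4:**
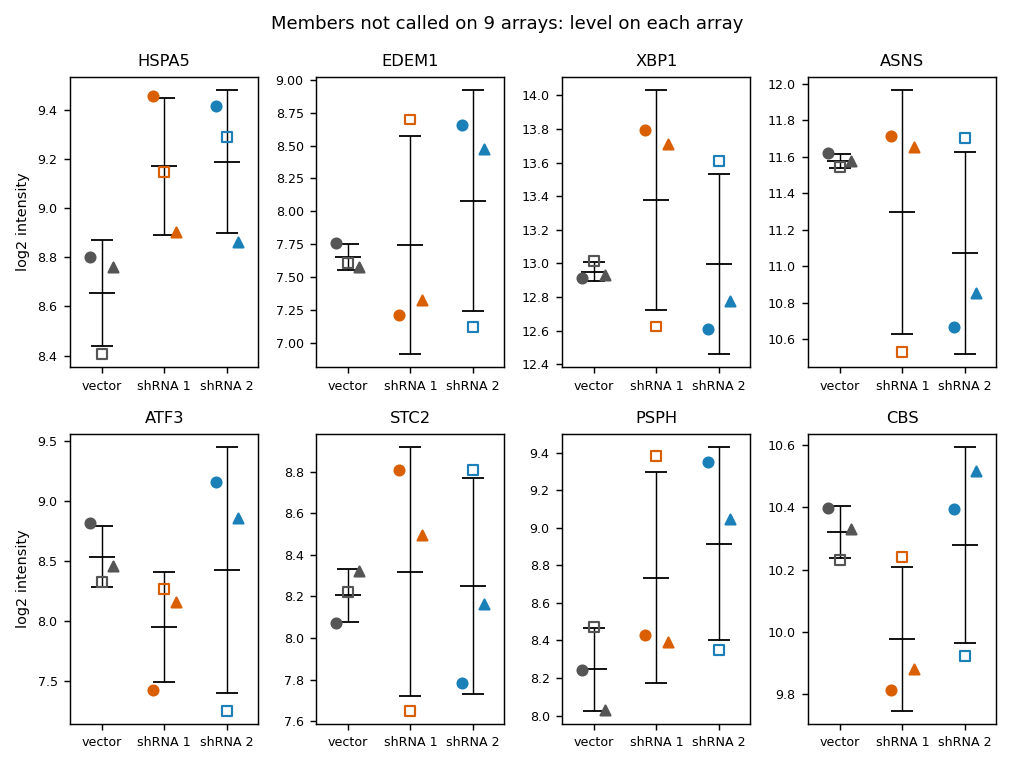
Log2 intensity on each array of 8 members not called on 9 arrays; circles are replicate 1, open squares replicate 2 and triangles replicate 3, with group means ± SD (n = 3). In the panels for EDEM1, XBP1, ASNS and PSPH, replicate 2 of each shRNA lies on the other side of its group from replicates 1 and 3, whereas the 6 HSPA5 values lie together above vector.

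Other genes of the pathway came from lists that held none of the members. In ER folding and glycan processing, 2 of 31 tested genes rose (6.45%, background 8.54%) and 0 fell (background 8.09%). They were CALU (0.89, adjusted p = 0.0103 in limma) and RCN2 (0.44, adjusted p = 0.0443), both calcium-binding proteins of the secretory pathway. In ER-associated degradation and translocation, 1 of 28 rose and 1 fell (3.57% each, below the same backgrounds). The channel component DERL1 rose (0.70, adjusted p = 0.0223 in limma). FAF2, which recruits the p97 ATPase to the ER, fell (-0.92, adjusted p = 0.00377). The medians of these lists were -0.02 and -0.05, near that of all genes.

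EIF2S1, the alpha subunit of eIF2 that PERK and GCN2 phosphorylate, had the largest change among the named pathway genes. It read 7.06, 6.89 and 6.65 in vector, 9.83, 8.77 and 9.18 under shRNA 1, and 9.07, 9.53 and 8.41 under shRNA 2. No knockdown array came near the vector arrays, and it rose by 2.27 (SE 0.29, adjusted p = 0.00292 in limma). EIF2AK4, which encodes GCN2, rose by 1.02 (SE 0.16, adjusted p = 0.00635). In this list of UPR and eIF2 signalling genes 3 of 21 rose (14.3%, background 8.54%) and 1 fell (4.76%, background 8.09%). The one that fell was CREB3L2, an ER-anchored transcription factor (-0.61, adjusted p = 0.0154 in limma). The third that rose, MBTPS2, the site-2 protease that releases ATF6, was named after its values were seen (0.67, adjusted p = 0.00644).

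Of 30 further ATF4 targets 8 fell (26.7%, background 8.09%) and 3 rose (10%, background 8.54%), with a median change of -0.28. The members' own ATF4 and stress group had 3 higher and 0 lower of 12, and the difference between these lists was not tested. SLC7A5, the light chain of the transporter for large neutral amino acids, read 10.00, 9.79 and 9.93 in vector, 8.28, 8.11 and 8.49 under shRNA 1, and 8.38, 8.43 and 8.40 under shRNA 2. It fell by 1.56 (SE 0.12, adjusted p = 0.000932 in limma), with little spread among knockdown arrays. SLC7A1, a carrier of cationic amino acids, also fell by 1.56 (SE 0.26, adjusted p = 0.00722). SLC38A2, which brings in small neutral amino acids, rose by 1.10 (SE 0.15, adjusted p = 0.00341), and the autophagy receptor SQSTM1 rose by 0.60 (adjusted p = 0.0433). The remaining called genes were named after their values were seen. VEGFA, a growth factor for vessels, rose by 0.52. The 6 others fell: PYCR1, of proline synthesis (-1.55), PCK2, the mitochondrial PEP carboxykinase (-1.02), SLC3A2, the heavy chain that pairs with SLC7A5 (-0.89), the translation repressor EIF4EBP1 (-0.88), the mitochondrial folate enzyme MTHFD1L (-0.70) and the tRNA synthetase WARS1 (-0.59).

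Of 22 one-carbon and sulfur amino acid genes 3 rose (13.6%, background 8.54%) and 3 fell (13.6%, background 8.09%). GLDC, the glycine decarboxylase, read 6.30, 6.34 and 6.61 in vector, 8.11, 9.29 and 8.01 under shRNA 1, and 9.25, 8.17 and 8.68 under shRNA 2. All knockdown arrays were far above vector. It rose by 2.17 (SE 0.32, adjusted p = 0.00502 in limma), and MAT2B, a regulatory subunit of methionine adenosyltransferase, by 1.17 (adjusted p = 0.00259). The folate enzymes SHMT1 (-0.75, adjusted p = 0.017) and MTHFD1 (-0.61, adjusted p = 0.0365) fell, although the other SHMT1 probes gave -0.27 and -0.18 and were not called. GOT1, a transaminase (0.70), and GSS, glutathione synthetase (-0.56), were the remaining called genes and were named after their values were seen. Among 19 cytosolic and mitochondrial heat shock genes, 2 rose (10.5%, background 8.54%) and 0 fell (background 8.09%). These were the small heat shock protein HSPB8 (1.34, adjusted p = 0.00579 in limma) and the Hsp40 DNAJB4 (0.86, adjusted p = 0.0339). Of the genes named in these lists, FAF2, EIF2S1, EIF2AK4, SLC7A5, SLC7A1, SLC38A2, GLDC, MAT2B and HSPB8 stayed called whichever array was left out. CALU, RCN2, DERL1, CREB3L2, SQSTM1, SHMT1, MTHFD1, DNAJB4, AURKB and CCNA2 lost the call without any 1 vector array. Some were lost without shRNA arrays too, so that RCN2 held in 1 of 9 such fits, DNAJB4 in 3, SQSTM1 and MTHFD1 in 4 and CCNA2 in 5. SQSTM1 was also lost with the authors' value table. With a replicate block DERL1, RCN2, SQSTM1, MTHFD1 and DNAJB4 were lost. Without background correction GLDC was 1.4 and DNAJB4 0.43, RCN2 was 0.28 with median centring, and SHMT1 was -0.40 as a mean of its probes. On 7 arrays all of these genes were called.

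**Figure D5:**
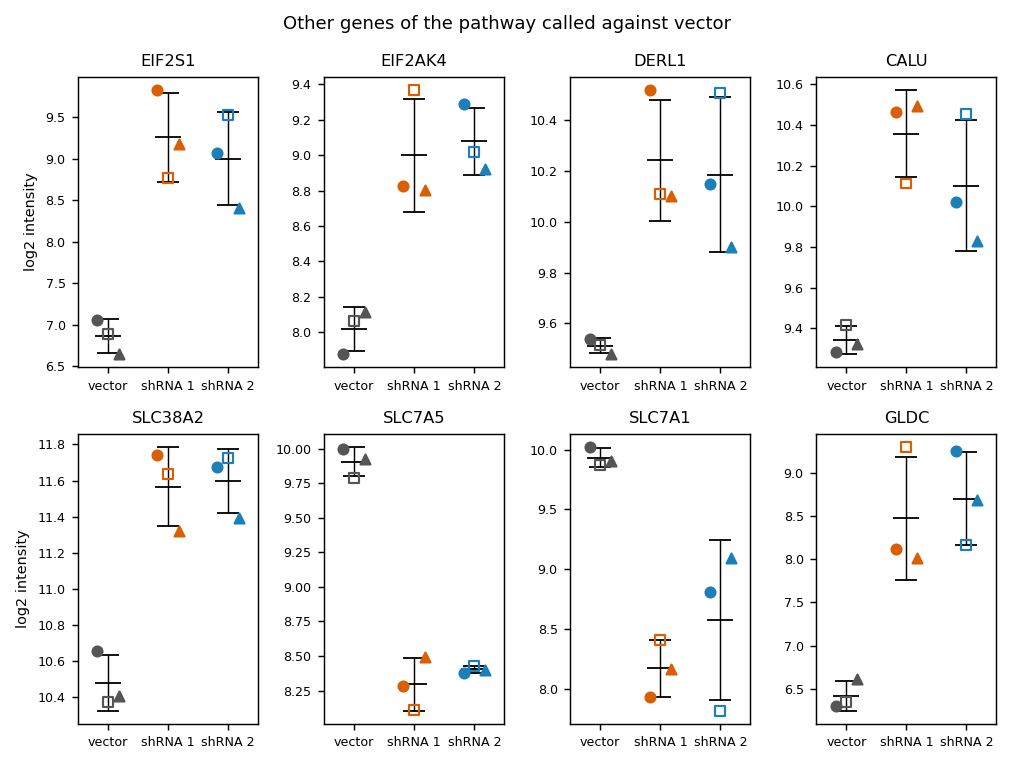
Log2 intensity on each array of 8 called genes of the pathway that are not members; circles are replicate 1, open squares replicate 2 and triangles replicate 3, with group means ± SD (n = 3). EIF2S1, EIF2AK4, DERL1, CALU, SLC38A2 and GLDC lie above vector on 6 of 6 knockdown arrays, and SLC7A5 and SLC7A1 below vector on 6 of 6.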

How the data were processed

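RNA of 9 BON-1 samples was hybridised to 1-colour Illumina arrays. The authors deposited the average bead signal intensity of 47231 probes, not normalized per the file headers, with a detection p-value per probe; the submitters' processing notes name GenomeStudio and give no version. A second deposited table of intensity for 47219 probes looks background-subtracted and quantile normalized, by a method that no source here states, and it served as an alternative. Groups came from the sample titles.

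In limma 3.58.1 (R 4.3.3), background was corrected with nec (offset 16), followed by quantile normalization and log2, which understates changes of dim genes. Probes with a detection p under 0.05 on 3 or more arrays were kept (22011), named from the platform annotation (30108 probes with 1 symbol, 8 with several, 17115 not listed; 30069 matched RefSeq, 0 symbols updated). For 3358 genes with several kept probes, the one of highest mean was used. The median raw signal was 119 to 129 per array. All 9 arrays entered 1 fit (lmFit, eBayes) with 3 group means, and p-values were adjusted over 12498 genes. The members, lists and tests were chosen with earlier results of these data known. Every member was named, up to 2 called genes a direction from each other list, and the 5 genes most like the called member of largest change. The fit was tested on simulated data with independent values and a spread taken from the vector arrays for every group. That test does not cover the wider spread among the knockdown arrays or the 2 arrays that stood apart. No slide is named in the headers, so none could be fitted.

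Between same-numbered arrays of different groups, correlations of deviations from group means ran from -0.89 to 0.15, so the numbers were not used as pairs. Vector against knockdown arrays gave 0.03 to 0.15. The 2 arrays that stood apart shape the deviations in both shRNA groups, so this check cannot decide whether the samples were paired. Alternatives were other background corrections, normalizations, dim-probe filters, probe rules and eBayes settings, array weights, a replicate block, and fits without each array or on 7 arrays.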

Additional observations from a re-analysis of the deposited data

How the results depend on the processing

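Counts are given as members lower and members higher with both shRNAs, then members called with shRNA 1, with shRNA 2 and between the shRNAs, against 4, 4, 7, 3 and 0 as reported. Median centring gave 7 lower and 2 higher, and its other counts stayed within 1.5 times. Array weights gave 12, 10, 22, 15 and 11. The 7 arrays gave 10, 9, 21, 14 and 19, on fewer samples and with less spread within each shRNA group by construction. The replicate block gave 2, 1, 1, 1 and 0. Whether the numbers pair the samples could not be decided, and calls lost under the block say nothing about the size of an effect. Leaving out 1 array at a time gave 1 to 5, 1 to 6, 0 to 10, 0 to 4 and 0 to 0; without a vector replicate 1 member was lower (PDIA4) and 1 higher (VLDLR). The chaperone median minus the ATF4 and amino acid median stayed between -0.42 and -0.22. No called member and no other named gene reversed: of 424 alternative values of called members 316 kept the call, and of 460 of the other named genes 406 did. EIF2S1, EIF2AK4, FAF2, SLC38A2, SLC7A1, SLC7A5, GLDC, MAT2B, HSPB8 and RABL6 stayed called in all of these, as did PDIA4 and VLDLR with both shRNAs. RCN2 and SQSTM1 were lost with median centring and cyclic loess, and DNAJB4 without background correction. With median centring the further ATF4 targets gave 1 higher and 10 lower. Over all genes with both shRNAs, 1067 were higher and 1011 lower as reported, and the member counts are to be read beside such counts. Array weights gave 2864 and 2724, median centring 613 and 1432, 7 arrays 2590 and 2561, and the replicate block 550 and 556. Leaving out 1 array at a time gave 257 to 1307 higher and 232 to 1276 lower, with the fewest when a vector array was left out. Fitting only the groups compared could not be done for both shRNAs together, and a slide block was not run because the headers name no slide. Signal over background limits PDIA3, ERN1, SEL1L, NUPR1, CHAC1 and CTH.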
